A study of Mus musculus with 9 samples.

Results

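Transcripts of 10 chemokine ligand genes, Ccl2, Ccl3, Ccl4, Ccl5, Ccl6, Ccl9, Ccl17, Cxcl1, Cxcl2 and Cxcl10, were followed in mouse BaF3 cells that carried 1 of 3 fusion tyrosine kinases. The genes were taken by symbol, and all 10 were measured, each by 1 probe set, out of 19938 genes tested. BaF3 is a mouse blood cell line that depends on interleukin-3. Cells were infected with a retrovirus carrying BCR-ABL (named BCR-ABL1P210 in the study design), BCR-RET or FGFR1OP-RET and then sorted by EGFP fluorescence, so that all 3 groups share the retroviral infection and the sort. Each group had 3 Affymetrix MouseGene 1.0 ST arrays. Each RET fusion was set against BCR-ABL and against the other RET fusion, and the series title links the RET fusions to monocytic differentiation. Cells without a fusion were not analysed here. The promoter that drives each fusion, the species of the fusion cDNA, the use of interleukin-3 in the cultures and the origin of the 3 arrays of a group were not given in the sources used here. P-values therefore measure the spread between arrays, which may be technical.

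Chemokines are small secreted proteins that guide the migration of leukocytes through receptors coupled to G proteins. The CC and CXC families are named after the spacing of conserved cysteines near the start of the mature protein. Ccl3, Ccl4 and Ccl5 attract monocytes and lymphocytes, Ccl6 and Ccl9 act on myeloid cells through Ccr1, Ccl2 recruits monocytes through Ccr2, and Ccl17 recruits T cells through Ccr4. Cxcl1 and Cxcl2 recruit neutrophils through Cxcr2, and Cxcl10, which interferons induce, recruits T cells through Cxcr3. Many of these genes are switched on by NF-kB.

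The 2 RET fusions went with different ligands. FGFR1OP-RET cells had more Ccl3, Ccl9 and Cxcl2 transcript than BCR-ABL cells, by 2.39-fold, 2.28-fold and 1.5-fold. BCR-RET cells had more Cxcl10 and Ccl17 than BCR-ABL cells, by 2.24-fold and 1.44-fold. Between the RET fusions Cxcl10 and Ccl17 were higher in BCR-RET, and Ccl3 and Ccl9 were higher in FGFR1OP-RET. The other 5 genes, Ccl2, Ccl4, Ccl5, Ccl6 and Cxcl1, passed in no comparison. All tests are limma's moderated test on log2 values over all genes, and a gene passed where its p, adjusted by Benjamini-Hochberg over all genes, was under 0.05.

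Marker genes of the line and of other cells were read first. The haematopoietic gene Ptprc and the interleukin-3 receptor chain genes Il3ra and Csf2rb had 9-array means of 11.67, 10.41 and 12.50 on the log2 scale, and the B-lineage genes Cd79b, Igll1, Vpreb1, Pax5, Ebf1 and Cd79a had 9.75, 7.81, 7.57, 7.53, 6.46 and 6.05. RMA values have no zero and detection calls were not used, so absence of a marker could not be read. Of 8 neutrophil markers 3 rose in FGFR1OP-RET against BCR-ABL (Mpo 1.55, Prtn3 1.27 and S100a9 0.96, log2 difference). The mean log2 level of that list ran from 10.22 to 10.51 on the BCR-ABL arrays, from 10.71 to 11.05 on the BCR-RET arrays and from 10.88 to 11.28 on the FGFR1OP-RET arrays. Of 10 monocyte and macrophage markers 3 also rose (Cd14 1.06, Mpeg1 1.01 and Fcgr1 0.57), with list means of 8.30 to 8.33, 8.40 to 8.49 and 8.65 to 8.96 in the same order. In BCR-RET against BCR-ABL none of these 18 markers passed by limma, with 4 of 8 neutrophil and 2 of 10 monocyte markers at an unadjusted p under 0.05. Of all genes 11.4% had an unadjusted p under 0.05 in that comparison, 9.75% in FGFR1OP-RET against BCR-ABL and 14.9% between the RET fusions. Prtn3, Cd14 and Mpeg1 were lower in BCR-RET than in FGFR1OP-RET (-0.65, -1.21 and -1.16). The adjusted p of Prtn3 against BCR-ABL stayed under the threshold in all repeats, and that of Mpo, S100a9, Cd14, Mpeg1 and Fcgr1 rose to at most 0.156, 0.146, 0.0971, 0.0653 and 0.147. Csf2rb was higher with both RET fusions than with BCR-ABL, by 0.72 and 0.69, and Ptprc was lower in BCR-RET than in FGFR1OP-RET (-0.36, limma adjusted p = 0.0182). The part of these markers in the chemokine values below was not tested, and in these bulk samples more cells of a type and more RNA per cell cannot be told apart. No gene of the 6 T and NK, 4 dendritic, 5 mast cell and basophil or 6 stroma and fibroblast markers passed in any comparison by limma. In that order, 0, 0, 1 and 0 had an unadjusted p under 0.05 in FGFR1OP-RET against BCR-ABL. The counts were 1, 0, 1 and 0 in BCR-RET against BCR-ABL and 2, 1, 2 and 1 between the RET fusions. In BCR-RET against FGFR1OP-RET, differences reached 0.59 in the T and NK list and 0.99 in the mast cell and basophil list. Arrays of 1 group correlated with r of 0.996 to 0.998 across genes, and arrays of different groups with 0.993 to 0.998.

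**Figure D1:**
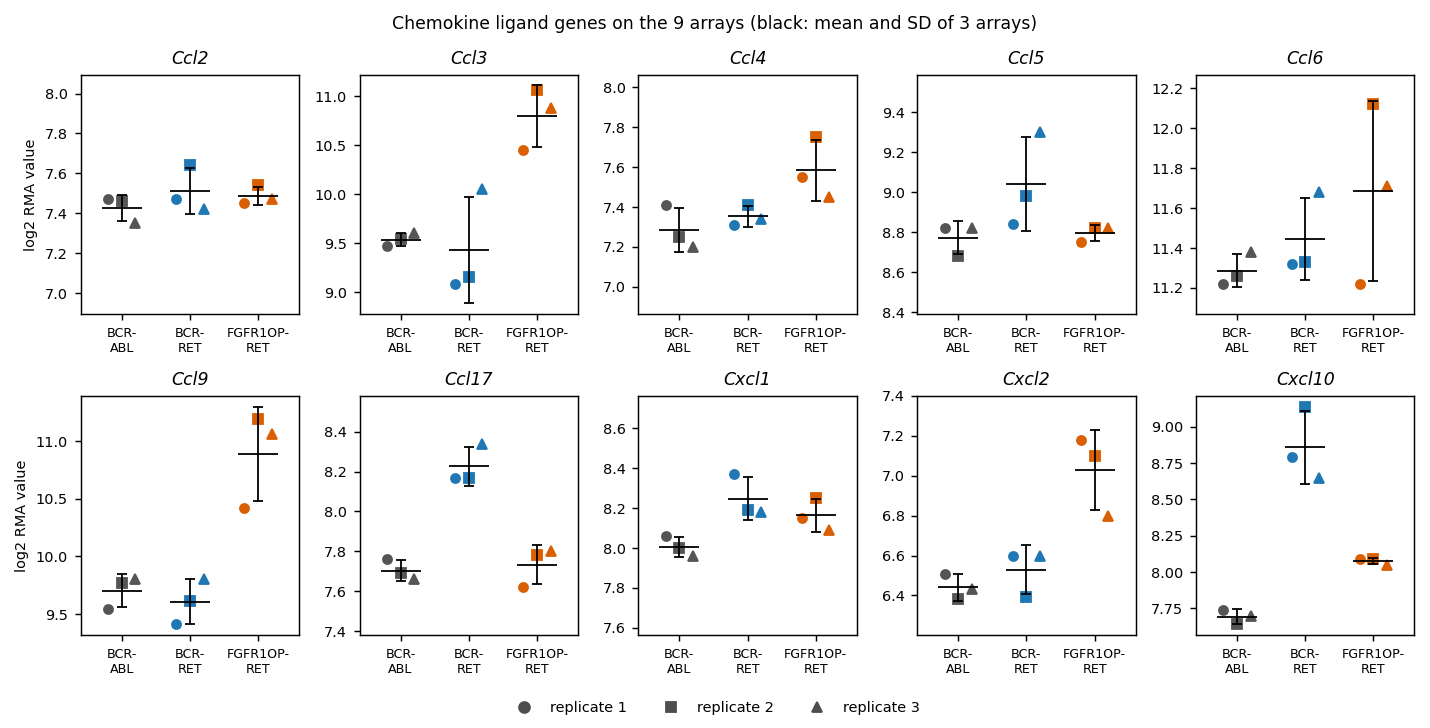
Deposited log2 RMA values of the 10 chemokine ligand genes on the 9 arrays, by fusion, with 1 symbol per replicate and the mean and SD of 3 arrays in black. Each panel has its own axis. The 3 FGFR1OP-RET arrays lie above all others for Ccl3, Ccl9 and Cxcl2, and the 3 BCR-RET arrays for Cxcl10 and Ccl17.

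RefSeq promoter sequences of mouse assembly GRCm38.p6 matched 7 of the 10 genes, Ccl3, Ccl6, Ccl9, Ccl17, Cxcl1, Cxcl2 and Cxcl10. The 250 bases before the start given by each promoter entry were searched on both strands for 3 patterns of 9 letters. These were an NF-kB site written GGANTTTCC, the core of an interferon-stimulated response element written GAAANNGAA and a STAT site written TTCNNNGAA. The windows border the annotated genes, except that of Ccl17, which lies inside its gene (chr8:94809380-94812038). The patterns did not overlap each other in these windows. The NF-kB pattern stood in 3 of the 7 promoters, those of Cxcl1, Cxcl2 and Cxcl10, beside 1.07% of 32851 promoter windows. The interferon pattern stood in those of Cxcl10 and Ccl3 (7.13% of windows) and the STAT pattern in that of Ccl17 (7.02%), and none of the 3 was in the windows of Ccl6 and Ccl9. Of the ligands that passed, the 4 with a match are shown, with Cxcl1 for comparison with its neighbour. Each is written from 5′ to 3′ on the strand of the gene and ends 1 base before the start, with the matches in capitals. They lie at chr5:92348890-92349139 (minus strand) for Cxcl10, chr5:90903649-90903898 (plus) for Cxcl2, chr5:90890995-90891244 (plus) for Cxcl1, chr11:83649379-83649628 (minus) for Ccl3 and chr8:94810203-94810452 (plus) for Ccl17.
Cxcl10: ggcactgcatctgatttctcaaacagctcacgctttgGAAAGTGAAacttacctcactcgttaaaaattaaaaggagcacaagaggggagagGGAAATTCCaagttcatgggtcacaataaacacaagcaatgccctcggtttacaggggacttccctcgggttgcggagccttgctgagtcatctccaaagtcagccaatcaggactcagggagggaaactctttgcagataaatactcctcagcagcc
Cxcl2: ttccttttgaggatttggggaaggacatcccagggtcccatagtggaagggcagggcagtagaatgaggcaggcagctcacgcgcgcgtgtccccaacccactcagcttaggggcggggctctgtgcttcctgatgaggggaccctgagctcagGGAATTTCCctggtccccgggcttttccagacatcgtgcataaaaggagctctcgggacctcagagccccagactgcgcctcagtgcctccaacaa
Cxcl1: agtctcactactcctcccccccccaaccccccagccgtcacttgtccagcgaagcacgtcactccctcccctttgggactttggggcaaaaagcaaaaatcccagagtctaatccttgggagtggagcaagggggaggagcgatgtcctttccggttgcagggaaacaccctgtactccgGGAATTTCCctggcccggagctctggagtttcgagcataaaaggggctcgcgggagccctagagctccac
Ccl3: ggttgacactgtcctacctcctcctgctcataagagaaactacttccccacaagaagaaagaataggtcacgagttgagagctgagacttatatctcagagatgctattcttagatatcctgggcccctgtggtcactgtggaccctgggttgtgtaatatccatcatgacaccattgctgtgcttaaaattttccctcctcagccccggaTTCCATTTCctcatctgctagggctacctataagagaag
Ccl17: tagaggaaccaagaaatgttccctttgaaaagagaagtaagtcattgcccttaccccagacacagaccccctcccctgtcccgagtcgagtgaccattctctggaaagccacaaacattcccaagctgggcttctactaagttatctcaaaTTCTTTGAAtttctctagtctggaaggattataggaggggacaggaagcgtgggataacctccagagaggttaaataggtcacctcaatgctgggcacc

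In the Cxcl10 window the interferon pattern lies 213 to 205 bases before the start and the NF-kB pattern, on the other strand, 158 to 150 bases before it. In Cxcl2 and Cxcl1 the same 9 bases, GGAATTTCC, lie 96 to 88 and 70 to 62 bases before the start, so both neighbours share the matched letters. A match is a run of letters, not a measured binding site.

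Of the 10 genes, Cxcl10 had the largest difference between BCR-RET and BCR-ABL cells. Its log2 values were 7.74, 7.64 and 7.70 on the BCR-ABL arrays, 8.79, 9.14 and 8.65 on the BCR-RET arrays and 8.09, 8.09 and 8.05 on the FGFR1OP-RET arrays. All BCR-RET arrays stood above all FGFR1OP-RET arrays, which stood above all BCR-ABL arrays, and no groups overlapped. The means were 7.70 ± 0.05, 8.86 ± 0.25 and 8.08 ± 0.03 (SD, n = 3). Against BCR-ABL, Cxcl10 rose in BCR-RET cells by 1.16 (SE 0.10, limma adjusted p = 0.00153), a call that held without each array in turn. It was also higher in BCR-RET than in FGFR1OP-RET, by 0.78 (SE 0.10, limma adjusted p = 0.00863). Without FGFR1OP-RET replicate 2 that adjusted p was 0.0501, and with the 6 arrays of the 2 groups alone it was 0.0838. FGFR1OP-RET differed from BCR-ABL by 0.38 (95% interval 0.15 to 0.62) and did not pass (limma adjusted p = 0.197). That comparison had an adjusted p of 0.0299 with the 6 arrays of the 2 groups alone and 0.0245 without BCR-RET replicate 2. Of the 3 FGFR1OP-RET values 2 were identical as deposited, and the source of the repeat was not tested.

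Ccl17 was the other gene that passed as higher in BCR-RET than in BCR-ABL cells. It read 7.76, 7.69 and 7.66 with BCR-ABL, 8.17, 8.17 and 8.34 with BCR-RET and 7.62, 7.78 and 7.80 with FGFR1OP-RET (log2). The BCR-RET arrays were above the other 6, and the other groups overlapped. Against BCR-ABL it rose by 0.52 (SE 0.07, limma adjusted p = 0.011). Leaving out BCR-ABL replicate 2 or 3 or BCR-RET replicate 3 raised that adjusted p to 0.0764, 0.0606 and 0.0517. Against FGFR1OP-RET it was higher by 0.49 (SE 0.07, limma adjusted p = 0.0108), which held without each array in turn and read 0.0794 with the 6 arrays of the 2 groups alone. FGFR1OP-RET and BCR-ABL differed by 0.03, with a 95% interval of -0.12 to 0.19.

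In FGFR1OP-RET cells the largest differences were those of Ccl3 and Ccl9. Ccl3, also known as an inhibitor of blood progenitor growth, had log2 values of 9.47, 9.54 and 9.60 with BCR-ABL, 9.08, 9.15 and 10.05 with BCR-RET and 10.45, 11.06 and 10.88 with FGFR1OP-RET. The FGFR1OP-RET arrays were above the other 6. BCR-RET replicate 3 lay above all BCR-ABL arrays and the other 2 BCR-RET arrays lay below them. The means were 9.53 ± 0.06, 9.43 ± 0.54 and 10.79 ± 0.31 (SD, n = 3). Ccl3 rose in FGFR1OP-RET against BCR-ABL by 1.26 (SE 0.24, limma adjusted p = 0.0464), close to the threshold. That adjusted p rose to 0.15, 0.197 and 0.158 on leaving out each BCR-ABL array in turn, to 0.0718 without BCR-RET replicate 2, and to 0.208 and 0.117 without FGFR1OP-RET replicate 2 or 3. The call also ended with arrays centred on their medians (0.0613) and with all probe sets tested (0.133), while the difference stayed between 1.13 and 1.43 over all alternatives.

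Between the RET fusions Ccl3 was lower in BCR-RET (log2 difference -1.37, SE 0.24, limma adjusted p = 0.0322). Here too the adjusted p passed 0.05 on leaving out each BCR-ABL array in turn (0.0579, 0.0733 and 0.0691), BCR-RET replicate 1 or 2 (0.0757 or 0.118) or FGFR1OP-RET replicate 2 or 3 (0.122 or 0.0704). It did so as well with the 6 arrays of the 2 groups alone (0.162) and with all probe sets (0.0978). BCR-RET and BCR-ABL differed in Ccl3 by -0.11, with a wide 95% interval of -0.65 to 0.43. Without BCR-RET replicate 3 that difference was -0.42 (limma adjusted p = 0.47).

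Ccl9, a chemokine found in rodents, followed Ccl3 closely. Its log2 values were 9.54, 9.77 and 9.80 with BCR-ABL, 9.41, 9.61 and 9.80 with BCR-RET and 10.42, 11.19 and 11.06 with FGFR1OP-RET. Again the FGFR1OP-RET arrays were above the other 6, and the other groups overlapped. Ccl9 rose in FGFR1OP-RET against BCR-ABL by 1.19 (SE 0.18, limma adjusted p = 0.0176). The adjusted p was 0.0843, 0.0871 and 0.067 on leaving out each BCR-ABL array in turn and 0.0835 and 0.0599 without FGFR1OP-RET replicate 2 or 3. It was also over the threshold with the 6 arrays of the 2 groups alone (0.0807) and with all probe sets (0.0704). In BCR-RET against FGFR1OP-RET it fell by 1.28 (SE 0.18, limma adjusted p = 0.0129). That call ended without BCR-RET replicate 2 (0.0637) and FGFR1OP-RET replicate 2 (0.0607), with the 6 arrays alone (0.0958) and with all probe sets (0.0557). Between BCR-RET and BCR-ABL the difference was -0.10 (95% interval -0.51 to 0.32).

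Cxcl2, a neutrophil attractant, read 6.51, 6.38 and 6.43 with BCR-ABL, 6.60, 6.39 and 6.60 with BCR-RET and 7.18, 7.10 and 6.80 with FGFR1OP-RET (log2). These are low values, as its 9-array mean of 6.66 exceeded that of 19.3% of genes and the median gene stood at 8.19. Detection calls were not used. Every FGFR1OP-RET array was above the other 6, and BCR-RET and BCR-ABL overlapped. Cxcl2 rose in FGFR1OP-RET against BCR-ABL by 0.59 (SE 0.10, limma adjusted p = 0.0292). Leaving out each BCR-ABL array in turn gave an adjusted p of 0.0833, 0.16 and 0.117, BCR-RET replicate 3 gave 0.0507, and FGFR1OP-RET replicate 1 or 2 gave 0.0785 or 0.146. The call ended too with the 6 arrays of the 2 groups alone (0.0873) and with all probe sets (0.0916). BCR-RET was lower than FGFR1OP-RET by 0.50 on the log2 scale without passing (95% interval of the difference -0.73 to -0.27, limma adjusted p = 0.0512). Over the alternatives that adjusted p ran from 0.0135, with the replicate number as a block, to 0.202, and it was under the threshold in 5 of 16. Same-numbered arrays did not all deviate together in that comparison, so the rule for such a block was not met. Its neighbour Cxcl1, which acts through the same receptor, had means of 8.01 ± 0.05, 8.25 ± 0.11 and 8.16 ± 0.08 with BCR-ABL, BCR-RET and FGFR1OP-RET (SD, n = 3). Both RET groups lay above BCR-ABL in every array, by 0.24 and 0.15, and neither passed (limma adjusted p = 0.238 and 0.508). Both promoters hold the GGAATTTCC shown above, and a direct test of Cxcl2 against Cxcl1 was not made.

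**Figure D2:**
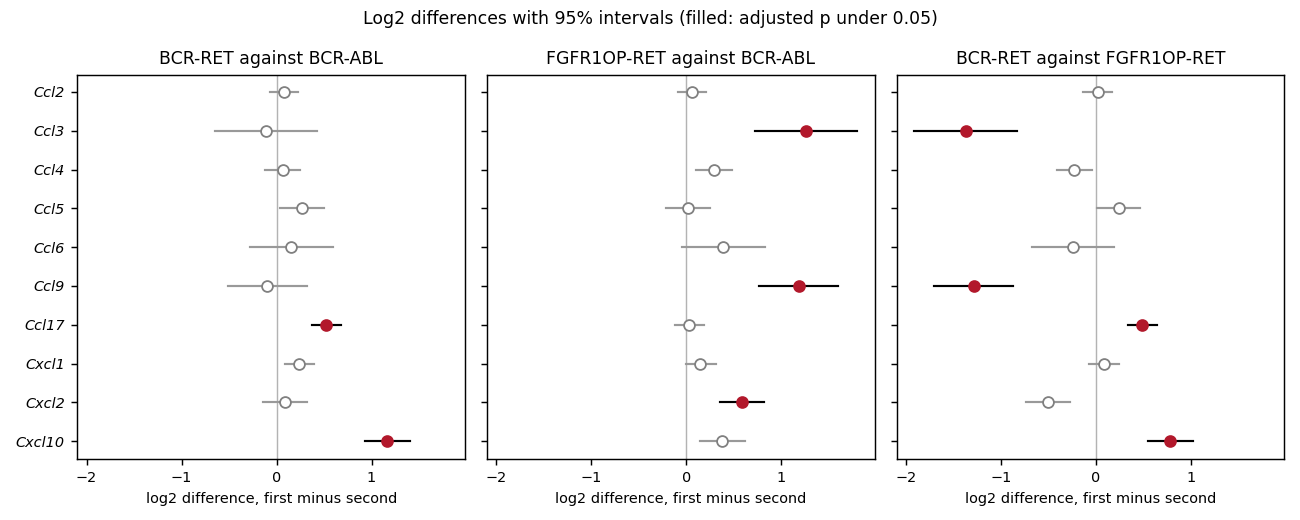
Log2 difference of each chemokine ligand gene in the 3 comparisons, first group minus second, with its 95% interval from the limma fit. Filled points have an adjusted p under 0.05, which are Ccl17 and Cxcl10 on the left, Ccl3, Ccl9 and Cxcl2 in the middle and Ccl3, Ccl9, Ccl17 and Cxcl10 on the right.

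The other 4 CC ligands did not pass in any comparison, and their intervals bound what could have been missed. Ccl4, a close relative of Ccl3, had log2 values of 7.41, 7.25 and 7.20 with BCR-ABL, 7.31, 7.41 and 7.34 with BCR-RET and 7.55, 7.75 and 7.45 with FGFR1OP-RET. The FGFR1OP-RET arrays were again above the other 6, by a small margin. Its difference of FGFR1OP-RET from BCR-ABL was 0.29 (95% interval 0.10 to 0.48, limma adjusted p = 0.228). For Ccl6, a myeloid chemokine, the same difference was 0.39 with an interval of -0.04 to 0.83, and the FGFR1OP-RET arrays spread from 11.22 to 12.12. Ccl5, a T cell and monocyte attractant, was highest on BCR-RET arrays, at 8.84, 8.98 and 9.30 against 8.68 to 8.82 with BCR-ABL. The groups did not overlap, yet the difference of 0.27 did not pass (95% interval 0.04 to 0.50, limma adjusted p = 0.369). Ccl2, the monocyte attractant, stayed between 7.35 and 7.64 on all 9 arrays. Its differences from BCR-ABL were 0.08 with BCR-RET and 0.06 with FGFR1OP-RET, the RET fusions differed by 0.02, and all 95% intervals lay within -0.13 and 0.23.

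By count, the ligands past the threshold in BCR-RET against BCR-ABL were 2 of 10, both higher, where 0.371% of all genes were called higher and 0.216% lower, 0.587% in all. In FGFR1OP-RET against BCR-ABL 3 passed, all higher, against 0.787% of all genes called higher, 0.231% lower and 1.02% in all. In BCR-RET against FGFR1OP-RET 2 were higher and 2 lower, where 0.476% and 0.853% of all genes were called in those directions, 1.33% in all. With 1 array left out, these counts ranged from 1 to 2, 0 to 3 and 1 to 4, and the arrays concerned are named with each gene above. The median log2 difference of the 10 genes was 0.12, 0.34 and -0.10 in the 3 comparisons, beside 0.03, 0.00 and 0.03 over all genes. In the same order, groups did not overlap for 4, 6 and 7 of the 10 genes. Of all genes 16.6% had no overlap in the first comparison (10.7% higher and 5.9% lower in BCR-RET), where the 4 ligands were higher. It was 12.1% in the next (6.94% higher and 5.13% lower in FGFR1OP-RET), where the 6 ligands were higher, and 15.3% between the RET fusions (8.77% higher and 6.49% lower in BCR-RET), where 3 ligands were higher and 4 lower. Any pair of these comparisons shares the 3 arrays of 1 fusion, so they are not independent of each other, and the genes had been chosen with earlier results of these data known.

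Over all genes, the called set in BCR-RET against BCR-ABL comprised 74 higher and 43 lower genes, and centring each array on its median gave 33 higher and 51 lower. In BCR-RET against FGFR1OP-RET it comprised 95 higher and 170 lower, and 55 and 240 after centring. All ligand calls in these 2 comparisons kept their direction and passed after that centring. With the replicate number as a block, BCR-RET against BCR-ABL had 362 genes past the threshold in place of 117, and the called ligands were Cxcl10 and Ccl17 in both fits (blocked adjusted p = 0.000357 and 0.00496).

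Replicate arrays of a group differed more in some ligands than in most genes. The pooled within-group SD was 0.37 for Ccl3, 0.29 for Ccl6 and 0.28 for Ccl9, more than that of 99.5%, 98.5% and 98.2% of genes. It was 0.08 for Ccl2, Ccl17 and Cxcl1, beside a median of 0.09 over all genes. Within FGFR1OP-RET, replicate 1 was the lowest array for Ccl3, Ccl6, Ccl9, Ccl2, Ccl5 and Ccl17, with deviations from the group mean of -0.35, -0.46 and -0.47 for the first 3 of these, and it was the highest for Cxcl2. The same array had the lowest neutrophil and monocyte list means of its group, 10.88 and 8.65 (monocyte 8.68 on replicate 3). It was also the lowest of its group for the BaF3 (8.54), T and NK (6.98), mast cell and basophil (8.33) and stroma (7.53) lists. The same held for the receptor (7.55), further ligand (7.09) and interferon (9.78) lists. It was the highest for the NF-kB list (9.73) and not the lowest for the dendritic list (7.58). Without FGFR1OP-RET replicate 1 the difference of Ccl9 from BCR-ABL was 1.42 and that of Ccl3 was 1.43, with limma adjusted p = 0.00396 and 0.0431. Within BCR-RET, replicate 3 was the highest array for Ccl3, Ccl5, Ccl6, Ccl9 and Ccl17. Its neutrophil, monocyte and mast cell and basophil list means were the highest of its group, 11.05, 8.49 and 8.71. Its means were the lowest of the group for the BaF3 (8.59), T and NK (7.17), dendritic (7.56) and stroma (7.53) lists. So were those of the receptor (7.55) and interferon (9.62) lists. For the further ligand (7.13) and NF-kB (9.73) lists it shared the lowest value, to the digits shown, with another array. It was the lowest BCR-RET array for Cxcl10, Ccl2 and Cxcl1.

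Genes with the nearest pattern were sought for the 5 ligands that passed, as the smallest root mean square difference over the 9 arrays after centring each gene on its mean. Symbols of predicted genes and clones were left out of the search. The 3 genes nearest to Ccl3 were Csta3 (0.16), Ccl9 (0.20) and Stfa2 (0.20), where Csta3 and Stfa2 encode stefins, inhibitors of cysteine proteases. Csta3 had means of 9.39, 9.36 and 10.57 with BCR-ABL, BCR-RET and FGFR1OP-RET. Nearest to Ccl9 were Slc15a3 (0.14), a lysosomal peptide transporter gene, the inhibitory Fc receptor gene Fcgr2b (0.17) and the myeloid receptor gene Trem1 (0.18). Cxcl2 lay nearest to Gsn (0.07), encoding the actin-severing protein gelsolin, Tcirg1 (0.09), a subunit of the vacuolar proton pump, and the myeloid tyrosine kinase gene Fes (0.10). The nearest to Cxcl10 were the transglutaminase gene Tgm2 (0.18), the mucin gene Muc13 (0.18) and Sprn (0.19). Nearest to Ccl17 were Smim11, Rangrf and Cpne5, each at 0.09. As a scale, the root mean square of the ligands about their own mean was 0.69 for Ccl3, 0.63 for Ccl9, 0.50 for Cxcl10, 0.28 for Cxcl2 and 0.25 for Ccl17. The same arrays hold both members of each pair, and these genes were picked for their likeness over the same 9 arrays, so their patterns are a description.

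**Figure D3:**
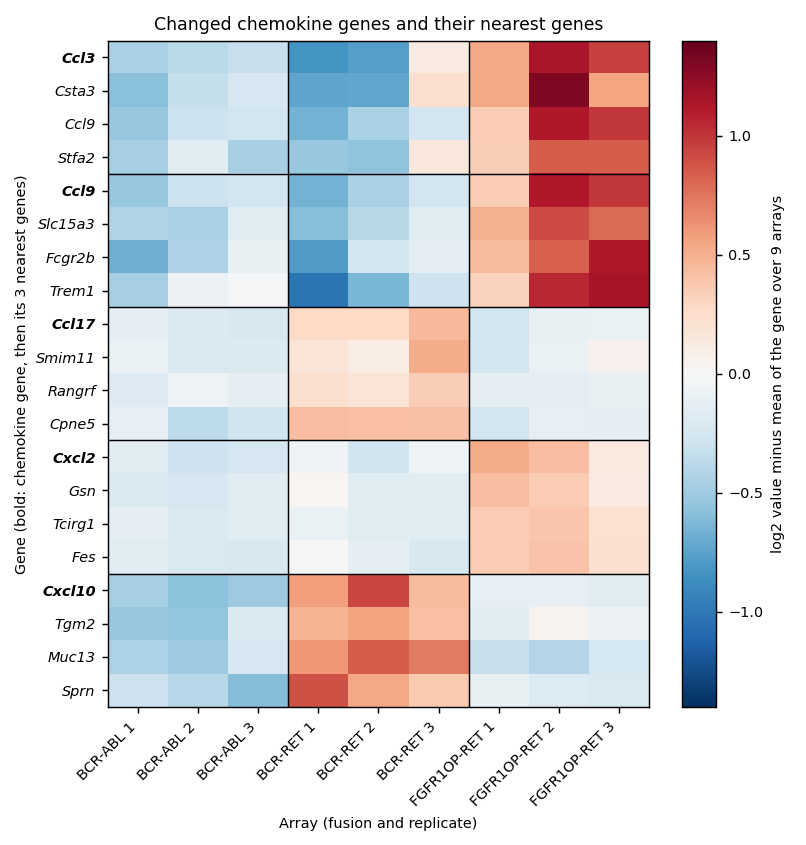
Heat map of the log2 value of each gene minus its mean over the 9 arrays, for the 5 ligand genes that passed (bold) and the 3 genes nearest to each, with genes in rows and arrays, grouped by fusion, in columns (red above and blue below the mean, colour bar in log2 units). Ccl3, Ccl9 and their nearest genes are high on the FGFR1OP-RET arrays and less so on replicate 1, and Cxcl10 and Ccl17 are high on the BCR-RET arrays.

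The place of the genes was set beside these values. In the RefSeq annotation of the same assembly, Ccl5, Ccl9, Ccl6, Ccl3 and Ccl4 follow each other on chromosome 11 with no other coding gene between them. Their log2 differences of FGFR1OP-RET from BCR-ABL were, in that order, 0.02, 1.19, 0.39, 1.26 and 0.29, so the 2 that passed, Ccl9 and Ccl3, flank Ccl6, which did not. Cxcl1 and Cxcl2 are adjacent on chromosome 5 and differed by 0.15 and 0.59 in the same comparison. The build behind the array annotation was not given in the sources used here, and the assembly was used for names and gene order. Cross-hybridisation between probe sets of related ligands was not tested.

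Genes of the NF-kB and interferon pathways were read beside the ligands. None of 10 NF-kB subunit and feedback genes passed in any comparison by limma, with 3, 2 and 3 at an unadjusted p under 0.05, beside 11.4%, 9.75% and 14.9% of all genes. Nfkbia, the inhibitor that NF-kB itself induces, had means of 9.56 ± 0.17 with BCR-ABL, 10.16 ± 0.20 with BCR-RET and 9.64 ± 0.10 with FGFR1OP-RET (log2, SD, n = 3). Its difference of BCR-RET from BCR-ABL, 0.60, missed the threshold (limma adjusted p = 0.0595). Over the alternatives its adjusted p ran from 0.0104, with the replicate number as a block, to 0.245. Of 15 interferon signalling genes, the transcription factor genes Irf7 (1.25, SE 0.12, limma adjusted p = 0.00216) and Irf9 (0.54, SE 0.07, limma adjusted p = 0.00784) rose in FGFR1OP-RET against BCR-ABL. Both were lower in BCR-RET than in FGFR1OP-RET, by 0.71 and 0.57 on the log2 scale (differences of -0.71 and -0.57, limma adjusted p = 0.026 and 0.00604). The Irf9 calls and that of Irf7 against BCR-ABL held in all repeats, and the other Irf7 call had an adjusted p of 0.0558 to 0.108 without BCR-ABL replicate 3, BCR-RET replicate 1 or 3 or FGFR1OP-RET replicate 1 or 2. With the 6 arrays of the groups compared and with all probe sets it was 0.114 and 0.0845. Cxcl10 was thus highest with BCR-RET, whereas Irf7 and Irf9 were highest with FGFR1OP-RET. None of the 15 passed in BCR-RET against BCR-ABL, where 3 had an unadjusted p under 0.05 (11.4% of all genes) and Irf7 differed by 0.54 (limma adjusted p = 0.119; 0.004 with the replicate block).

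The further chemokine ligands moved little. None of 26 passed in any of the 3 comparisons by limma, with 3, 3 and 1 at an unadjusted p under 0.05 (11.4%, 9.75% and 14.9% of all genes), and the list medians were 0.03, 0.01 and 0.03. The largest difference was that of Cxcl15, 0.48 in FGFR1OP-RET against BCR-ABL (limma adjusted p = 0.0529). Its adjusted p fell under the threshold with the replicate block, array centring, repeated quantile normalization and a trended prior (0.0234, 0.0446, 0.03 and 0.0483), and it reached 0.228 at most over all alternatives. The rule for the replicate block was not met in that comparison. Cxcl9 and Cxcl11, which share the receptor of Cxcl10, differed by 0.04 and 0.28 in BCR-RET against BCR-ABL (limma adjusted p = 0.798 and 0.331). Cxcl3, a relative of Cxcl2, differed by 0.17 in FGFR1OP-RET against BCR-ABL (limma adjusted p = 0.399).

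Among 23 chemokine receptor genes Ccr1 and Ccr4 passed. Ccr1, the receptor of Ccl3, Ccl5, Ccl6 and Ccl9, read 7.88, 8.11 and 8.42 with BCR-ABL, 7.68, 7.68 and 8.17 with BCR-RET and 9.09, 9.48 and 9.73 with FGFR1OP-RET (log2). It was higher on every FGFR1OP-RET array than on the other 6, as Ccl3 and Ccl9 were. Ccr1 rose in FGFR1OP-RET against BCR-ABL by 1.30 (SE 0.19, limma adjusted p = 0.0146) and was lower in BCR-RET than in FGFR1OP-RET (-1.59, SE 0.19, limma adjusted p = 0.00591). Against BCR-ABL its adjusted p was 0.0668 and 0.0899 without BCR-ABL replicate 1 or 2 and 0.0853 without FGFR1OP-RET replicate 2, and the call between the RET fusions held without each array in turn. With the 6 arrays of the groups compared the adjusted p values were 0.0537 and 0.0542. Ccr4, the receptor of Ccl17, read 10.21, 10.17 and 10.39 with BCR-ABL, 9.64, 9.92 and 9.91 with BCR-RET and 9.08, 9.21 and 9.48 with FGFR1OP-RET. Its groups did not overlap and were in the order BCR-ABL, BCR-RET, FGFR1OP-RET from high to low, whereas Ccl17 was highest with BCR-RET. Ccr4 fell in FGFR1OP-RET against BCR-ABL by 1.00 (SE 0.11, limma adjusted p = 0.00406), and BCR-RET was above FGFR1OP-RET by 0.57 at the threshold (limma adjusted p = 0.0499). The first call held in all repeats. The other reached an adjusted p of 0.0773 to 0.184 on leaving out any array but BCR-RET replicate 1 and FGFR1OP-RET replicate 3. It was 0.173 with 6 arrays, 0.0711 with centring, 0.111 with all probe sets and 0.0525 with a trended prior.

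The remaining receptors of these ligands did not pass. Cxcr2, the receptor of Cxcl1 and Cxcl2, read 6.80, 6.63 and 6.94 with BCR-ABL, 6.96 on all 3 BCR-RET arrays and 7.29, 7.31 and 7.07 with FGFR1OP-RET. Like Cxcl2, it was above the other 6 arrays on every FGFR1OP-RET array, with a difference from BCR-ABL of 0.43 that missed the threshold (limma adjusted p = 0.0561). Over the alternatives its adjusted p ran from 0.0337, with the replicate number as a block, to 0.222. The rule for such a block was not met in that comparison. Cxcr3, the receptor of Cxcl10, had means of 7.79, 7.85 and 7.76 with BCR-ABL, BCR-RET and FGFR1OP-RET, and Ccr2, the receptor of Ccl2, had 8.89, 8.98 and 8.94. In BCR-RET against BCR-ABL no receptor gene passed by limma, with 4 of 23 at an unadjusted p under 0.05, beside 11.4% of all genes. With the replicate number as a block Ccr4 (-0.43, adjusted p = 0.0174) and Ccr7 (0.29, adjusted p = 0.0301) passed there.

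**Figure D4:**
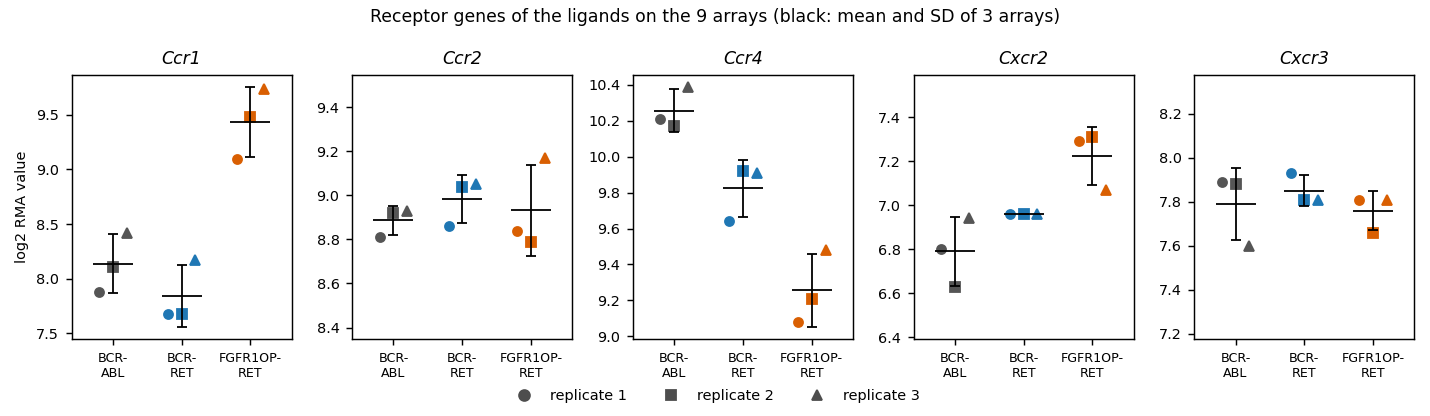
Deposited log2 RMA values of 5 receptor genes on the 9 arrays, by fusion, with the mean and SD of 3 arrays in black and an own vertical axis per panel. Ccr1 is highest and Ccr4 lowest on the FGFR1OP-RET arrays, and Ccr2 and Cxcr3 overlap between the groups.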

How the data were processed

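RNA of 9 samples of sorted BaF3 cells was measured on Affymetrix MouseGene 1.0 ST arrays. The log2 values that the authors deposited, 1 for each probe set on each array, came from RMA in Expression Console, as the submitters' processing notes record; version and annotation were not given in the sources used here. RMA equalises array distributions. Values ran from 2.66 to 14.92, with array medians of 8.01 to 8.04, and 3 arrays a group limit the precision. Of 35557 probe sets, 21789 had 1 symbol; the one with the highest 9-array mean was kept per gene (19938 genes). Groups and replicate numbers came from the sample titles. limma 3.58.1 (R 4.3.3; lmFit, eBayes) was fitted with 3 group means on all 9 arrays, and was tested on simulated data.

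The members and lists were chosen with earlier results of these data known. Named genes were the 10 ligands, list genes that passed, the ligands' receptors and the 3 genes nearest to each ligand that passed; list genes at or near the threshold (Nfkbia, Ccr7, Cxcl15) and relatives of ligands (Cxcl3, Cxcl9, Cxcl11) were added after their values were seen. Same-numbered arrays of BCR-ABL and BCR-RET had deviations from their group means that correlated across genes with r of 0.617, 0.155 and 0.367. Arrays of different number had r of -0.478 to 0.222, so the replicate 2 arrays did not match each other best. All same-number values exceeded 0.1, the rule for pairing, so results with the number as a block are given beside the main fit there. The main fit had no replicate term, and calls come from it unless another setting is named. No other comparison met that rule. The source of values repeated between arrays was not tested.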

Additional observations from a re-analysis of the deposited data

How the results depend on the processing

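The fits were repeated under 8 other settings and without each of the 9 arrays in turn. Of 495 repeats of the ligands' differences, 439 kept direction and side of the threshold, 42 lost the call, 7 gained one and 7 changed sign. Giving BCR-RET against BCR-ABL first, FGFR1OP-RET against BCR-ABL next and the RET fusions last, genes past the threshold numbered 117, 203 and 265. They numbered 362, 576 and 1135 with replicate number as a block, 56, 94 and 34 with the 6 arrays of the groups compared, and 73, 121 and 101 with all probe sets. Without 1 array they ranged from 28 to 114, 70 to 185 and 86 to 194, lowest without BCR-ABL replicate 2 in the first 2 comparisons and FGFR1OP-RET replicate 2 in the last. Ligands past the threshold in FGFR1OP-RET against BCR-ABL fell from 3 to 0 with all probe sets (limma; 5 at an unadjusted p under 0.05). In BCR-RET against FGFR1OP-RET they fell from 4 to 2 with all probe sets and to 0 with 6 arrays (6 unadjusted). They rose to 5, with Cxcl2 added, with the block, centring, quantile normalization and a trended prior. In BCR-RET against BCR-ABL 1 passed among genes in the upper part by mean level, which leaves out 5 ligands, Cxcl2 and Ccl17 among them. With that setting 2 passed in FGFR1OP-RET against BCR-ABL and 3 between the RET fusions. Without 1 array the ligand counts ranged from 1 to 2, 0 to 3 and 1 to 4. Of the further ligands 1, Cxcl15, passed in FGFR1OP-RET against BCR-ABL with the block, centring, quantile normalization and a trended prior, and in BCR-RET against FGFR1OP-RET with the first 3 of these. Without 1 array the further ligand count ranged from 0 to 1 in FGFR1OP-RET against BCR-ABL. Receptors past the threshold were 2 with the replicate block in BCR-RET against BCR-ABL, in place of 0. In FGFR1OP-RET against BCR-ABL they were 4 with the block, 1 with 6 arrays, 1 with all probe sets and 1 to 3 without 1 array, in place of 2. In BCR-RET against FGFR1OP-RET they were 0 with 6 arrays (3 unadjusted, limma), 1 with centring, all probe sets or a trended prior, and 1 to 2 without 1 array. Signs changed only for differences that never passed, and with 1 exception only when an array was left out. These were Ccl3 (-0.42 to 0.07) and Ccl9 (-0.19 to 0.00) in BCR-RET against BCR-ABL, Ccl5 (-0.02 to 0.05) in FGFR1OP-RET against BCR-ABL, and Ccl2 (-0.04 to 0.07) in BCR-RET against FGFR1OP-RET. The exception is that Ccl2 difference, which was also -0.01 with centring and -0.02 with quantile normalization. Beyond the construction of each setting, the causes were not tested. In the comparisons with FGFR1OP-RET same-numbered arrays did not all deviate together (r of 0.382, -0.128 and 0.4, and 0.498, -0.152 and 0.41), so blocked counts there are given here only.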
